A study of Mus musculus with 6 samples.

Results

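Mitochondrial ribosomal protein genes encode the proteins of the ribosome inside mitochondria. They were taken as every row of the deposited gene table whose name starts with Mrpl or Mrps followed by a digit, with pseudogene names left out. This gave 78 of the 55401 genes in the table, 49 with large subunit names (Mrpl) and 29 with small subunit names (Mrps). All 78 passed the filter on low counts and were tested. The series compared bone marrow-derived macrophages (BMDMs) of mice with a lowered Lamtor5 and of WT mice. HBXIP is another name of Lamtor5, whose product belongs to Ragulator, a complex that anchors mTORC1 signalling at the lysosome. Both groups were induced with M-CSF, the growth factor that turns bone marrow precursors into macrophages. The mutant group, libraries Lysm1 to Lysm3, carries the genotype label Lamtor5 knockdown. The series design writes the mutant mouse as HBXIPΔLysM, a notation commonly used for deletion by Cre from the lysozyme M promoter, which is active in myeloid cells. The control group, libraries WT1 to WT3, is wild type. Not given in the sources used here are strain, age, and whether the 3 libraries of a group come from separate mice or cultures. P-values therefore measure only how far these libraries differ, which may be a technical spread.

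The mitochondrial ribosome translates the few mRNAs encoded by mitochondrial DNA, all of which specify subunits of the respiratory chain and ATP synthase. Its small subunit binds the mRNA and decodes it, and its large subunit forms peptide bonds. All of its proteins are made in the cytosol from nuclear genes and imported. Some descend from bacterial ribosomal proteins and others were added in mitochondria.

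The libraries held 75.8 to 83.2 M estimated counts, from 26.0 to 28.0 M read pairs, and the 78 genes took 0.206 to 0.225% of the counts. Lamtor5 stood at 25.5, 27.1 and 24.8 FPKM in the knockdown libraries and at 55.9, 54.5 and 56.2 FPKM in the WT libraries. It fell by 1.06 on the log2 scale (SE 0.078, n = 3 per group, edgeR adjusted p = 0.00963), so the transcript was lower but present. An exact two-sided permutation test on the FPKM of Lamtor5 gave p = 0.1, the smallest that 3 against 3 libraries allow. Of 7 macrophage markers, 5 were lower in knockdown (Csf1r, Adgre1, Itgam, Fcgr1 and Cd14) and Cd68 was higher. The other, Mertk, stood at 7.29, 5.78 and 8.98 FPKM in knockdown and at 5.09, 3.33 and 1.87 FPKM in WT. Its groups did not overlap, but it did not pass the test (log2 fold change 1.14, edgeR adjusted p = 0.0922). The summed level of the 7 overlapped between groups (1746 to 1908 FPKM in knockdown, 1782 to 1991 in WT). Most of the knockdown sum was Cd68 (1273 to 1571 FPKM in knockdown, 930 to 971 in WT). Without Cd68, left out after its values were seen, the other 6 summed to 338 to 473 FPKM in knockdown and 811 to 1053 FPKM in WT, without overlap. The T cell markers Cd3d, Cd3e and Cd3g together stood at no more than 0.0403 FPKM in any library. Of the 3 B cell markers and the 3 mast cell and basophil markers none passed the test. Their sums were 1.10 to 4.97 and 0.847 to 2.41 FPKM in knockdown and 5.18 to 7.30 and 0.506 to 0.867 FPKM in WT. Neutrophil and fibroblast markers overlapped between groups. The 6 proliferation markers were all lower, with summed levels of 15.8 to 36.4 FPKM in knockdown and 91.9 to 204 FPKM in WT. With knockdown replicate 1 left out, 1 macrophage and 1 proliferation marker were still called lower. The part of these marker shifts in the values below was not tested. In bulk RNA, fewer cells of a type and less RNA per cell cannot be told apart.

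Of the 78 mitochondrial ribosomal protein genes, 1 rose in the knockdown (Mrpl41) and 1 fell (Mrps6). That is 2.56% called at an edgeR adjusted p under 0.05, against 11.3% of all 18164 genes tested (4.87% higher and 6.46% lower). The remaining 76 did not pass the test. The median log2 fold change, knockdown over WT, was 0.03 over all 78 genes, beside 0.02 over all genes tested. Without WT replicate 2, no gene in the whole table passed the threshold (smallest adjusted p = 0.0616), so every call given here depends on that library. The FPKM of the groups did not overlap for 17 of them, 8 with the knockdown above and 9 with it below, where 37.6% of all genes tested were separated in this way. An unadjusted p under 0.05 was reached by 12, or 15.4%, against 30.2% of all genes.

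**Figure D1:**
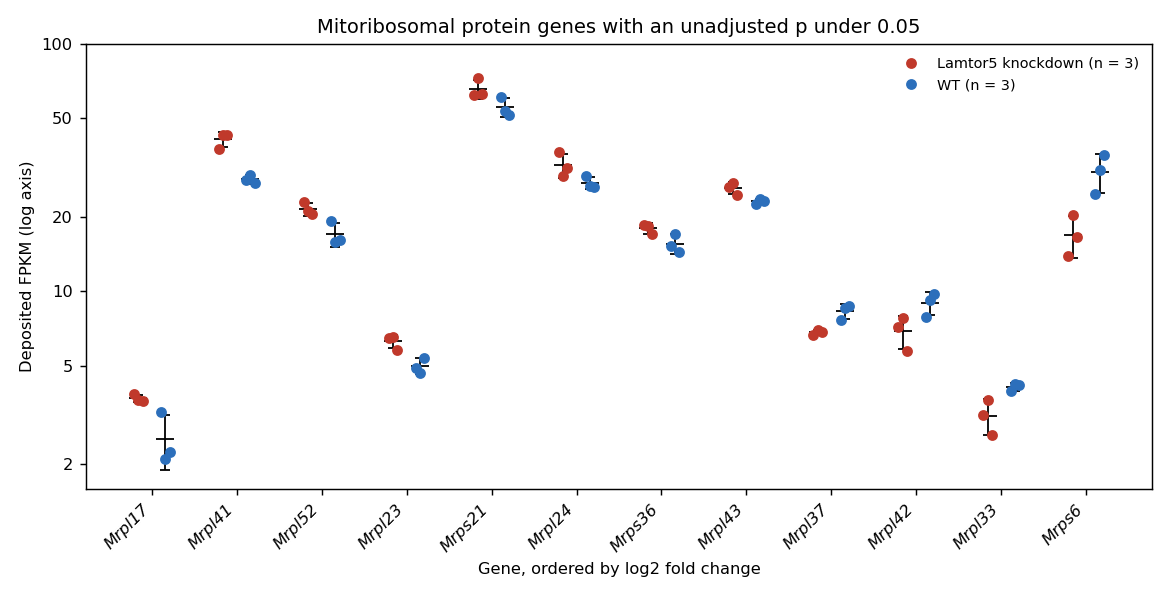
Deposited FPKM (log axis) of the 12 mitochondrial ribosomal protein genes with an unadjusted p under 0.05, with 1 point per library, 3 knockdown and 3 WT, ordered by log2 fold change. The genes run from Mrpl17 and Mrpl41, at 0.59, to Mrps6, at -0.79. The libraries of the groups do not overlap in 10 of the 12, but these were chosen by p from the same libraries. Such separation was seen for 17 of all 78 members and for 37.6% of all genes tested.

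Most of the 78 genes had narrow intervals. The 95% interval of the log2 fold change lay within -1 and 1, that is within a 2-fold change either way, for 75 of the 78 (96.2%), against 51.4% of all genes tested. It lay within -0.5 and 0.5 for 58 (74.4%), against 24.8% of all genes. The 3 genes whose interval reached past a 2-fold change were Mrpl17, Mrpl53 and Mrps6. The estimate itself was under 0.25 in size for 65 genes (83.3%), against 40.0% of all genes. The median SE was 0.116 for these genes and 0.224 for all genes tested, and their median level was 9.39 FPKM beside 2.49 FPKM.

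Mrpl41, a mitochondria-specific protein of the large subunit, is identified in the table as ENSMUSG00000036850. It lies on the minus strand at chr2:24974117-24975098 (GRCm38), and its longest coding transcript has 2 exons. Its level was 37.7, 43.0 and 42.9 FPKM in the knockdown libraries and 28.2, 29.6 and 27.4 FPKM in WT. Every knockdown library stood above every WT library. The log2 fold change was 0.59 (SE 0.089, 95% interval 0.37 to 0.80, edgeR adjusted p = 0.0151). The call was lost in 2 of 15 alternatives: without WT replicate 2 (adjusted p = 0.0758) and with the replicate number as a block. No exon base of Mrpl41 is shared with another gene tested. The start of Pnpla7, a lysophospholipase gene on the opposite strand, lies 935 bp away. Pnpla7 stood at 29.3, 29.2 and 31.9 FPKM in knockdown and at 25.4, 21.8 and 19.0 FPKM in WT (log2 fold change 0.50, adjusted p = 0.0509).

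Mrps6, the counterpart of bacterial protein S6 in the small subunit, is ENSMUSG00000039680 on the plus strand at chr16:92058270-92112227, with 3 exons in its longest coding transcript. Its level was 13.9, 20.4 and 16.7 FPKM in knockdown and 24.7, 30.8 and 35.5 FPKM in WT. The groups did not overlap. It fell by 0.79 on the log2 scale (SE 0.17, 95% interval -1.19 to -0.40, edgeR adjusted p = 0.0308). The call was lost when WT replicate 2 (adjusted p = 0.110), WT replicate 3 (0.0851), knockdown replicate 1 (0.0834) or knockdown replicate 3 (0.0901) was left out. It was also lost without a count filter (0.0534) and with limma without a filter (0.0864), 6 of 15 alternatives in all. Mrps6 lies over Slc5a3, the gene of a myo-inositol transporter, on the same strand (chr16:92058322-92087473), and they share 159 exon bases. Slc5a3 stood at 3.01, 4.45 and 3.82 FPKM in knockdown and at 6.71, 9.60 and 8.16 FPKM in WT, and fell by 1.07 on the log2 scale (SE 0.16, adjusted p = 0.0153). The Slc5a3 call was lost without WT replicate 2 (adjusted p = 0.0686) or knockdown replicate 1 (0.0514), and with limma without a filter (0.0512). How reads in the shared bases were assigned is not given in the sources used here, so the value of Mrps6 is uncertain.

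The promoter windows of both called genes are shown because they can be set beside those of genes that hold common promoter motifs. Each window runs from 250 bases before to 50 after a RefSeq start (GRCm38.p6), 300 bases, 5′ to 3′ on the strand of the gene. Capitals mark matches to the motifs of NRF1, a regulator of nuclear genes for mitochondria, or of ETS factors such as GABP. The Mrpl41 window is chr2:24975049-24975348 on the minus strand and holds neither motif, nor that of YY1. The Mrps6 window is chr16:92058086-92058385 on the plus strand and also holds none of the 3. In it the start of Mrps6 in the deposited table is at position 185 and that of Slc5a3 at position 237, counted from 1 at the 5′ end.
Mrpl41: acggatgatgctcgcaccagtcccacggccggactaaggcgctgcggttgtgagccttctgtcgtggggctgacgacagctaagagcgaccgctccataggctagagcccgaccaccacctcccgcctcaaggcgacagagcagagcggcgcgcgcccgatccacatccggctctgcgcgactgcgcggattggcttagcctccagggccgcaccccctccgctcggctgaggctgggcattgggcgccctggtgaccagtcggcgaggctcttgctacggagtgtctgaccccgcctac
Mrps6: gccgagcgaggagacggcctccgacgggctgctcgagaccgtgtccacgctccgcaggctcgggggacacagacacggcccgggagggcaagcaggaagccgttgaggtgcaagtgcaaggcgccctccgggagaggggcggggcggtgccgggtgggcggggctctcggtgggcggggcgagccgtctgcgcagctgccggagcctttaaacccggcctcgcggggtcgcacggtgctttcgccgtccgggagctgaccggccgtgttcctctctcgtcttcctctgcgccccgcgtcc

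The windows of Mrps21 and Mrpl57 each hold 1 NRF1 and 1 ETS match. Mrps21 is the most abundant of the 78 transcripts, and its window is chr3:95871465-95871764 on the minus strand. Mrpl57 is shown for its neighbour Ska3, described further on, and its window is chr14:57825989-57826288 on the plus strand. Ska3 starts at position 175 of that window, on the opposite strand, and Mrpl57 at position 246.
Mrps21: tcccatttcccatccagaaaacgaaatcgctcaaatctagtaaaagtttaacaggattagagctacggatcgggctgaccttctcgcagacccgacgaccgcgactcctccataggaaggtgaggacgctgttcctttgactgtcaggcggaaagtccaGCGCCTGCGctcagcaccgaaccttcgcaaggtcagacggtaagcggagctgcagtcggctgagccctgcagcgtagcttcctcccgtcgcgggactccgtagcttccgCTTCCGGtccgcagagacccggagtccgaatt
Mrpl57: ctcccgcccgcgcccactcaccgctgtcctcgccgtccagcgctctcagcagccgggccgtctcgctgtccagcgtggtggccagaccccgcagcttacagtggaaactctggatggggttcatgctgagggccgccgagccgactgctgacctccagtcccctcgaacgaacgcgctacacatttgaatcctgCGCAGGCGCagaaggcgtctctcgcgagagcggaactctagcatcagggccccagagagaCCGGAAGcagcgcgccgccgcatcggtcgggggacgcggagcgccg

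A RefSeq window was matched by symbol for 69 of the 78 genes and for 11809 of the 18164 genes tested. The RefSeq start lay within 100 bp of the gene start in the deposited table for 52 of the 69, and within 1000 bp for 67. It lay 17016 bp away for Mrpl33 and 2496 bp away for Mrpl36, so some windows may not be at the start in use. The NRF1 motif was searched as GCGCNTGCG, the ETS motif as CCGGAAG and the motif of YY1, another factor found at many ribosomal and mitochondrial genes, as AANATGGCG, each on both strands. Matches of different motifs may share bases, and each was counted. NRF1 matches were found in 18 of the 69 windows (26.1%), against 13.0% of the windows of all tested genes. ETS matches were found in 24 (34.8%), against 17.3%, and YY1 matches in 11 (15.9%), against 4.84%. At least 1 of the 3 motifs was present in 42 windows (60.9%), against 30.5%. These counts describe letters in the windows and not bound sites. The median log2 fold change was 0.08 for genes with an NRF1 match and 0.02 for those without. It was 0.06 with and 0.04 without an ETS match, and -0.14 with and 0.05 without a YY1 match.

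Among the 49 large subunit genes, Mrpl41 rose and none fell, with a median log2 fold change of 0.05 and a range from -0.34 to 0.59. The estimate was above 0 for 31 of them and below 0 for 18. Among the 29 small subunit genes, none rose and Mrps6 fell, with a median of -0.00 and a range from -0.79 to 0.29, 14 above 0 and 15 below. The share called was 2.04% of the large and 3.45% of the small subunit genes, both below the 11.3% of all genes. The products of Mrps18a and Mrps30 sit in the large subunit despite their names. With these counted there, the medians were 0.03 for the large and 0.04 for the small subunit. Mrps36, whose protein is now assigned to another complex, as described further on, was kept with the small subunit. The 44 genes with a bacterial homolog had a median of 0.04 and the 34 mitochondria-specific ones a median of -0.01.

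**Figure D2:**
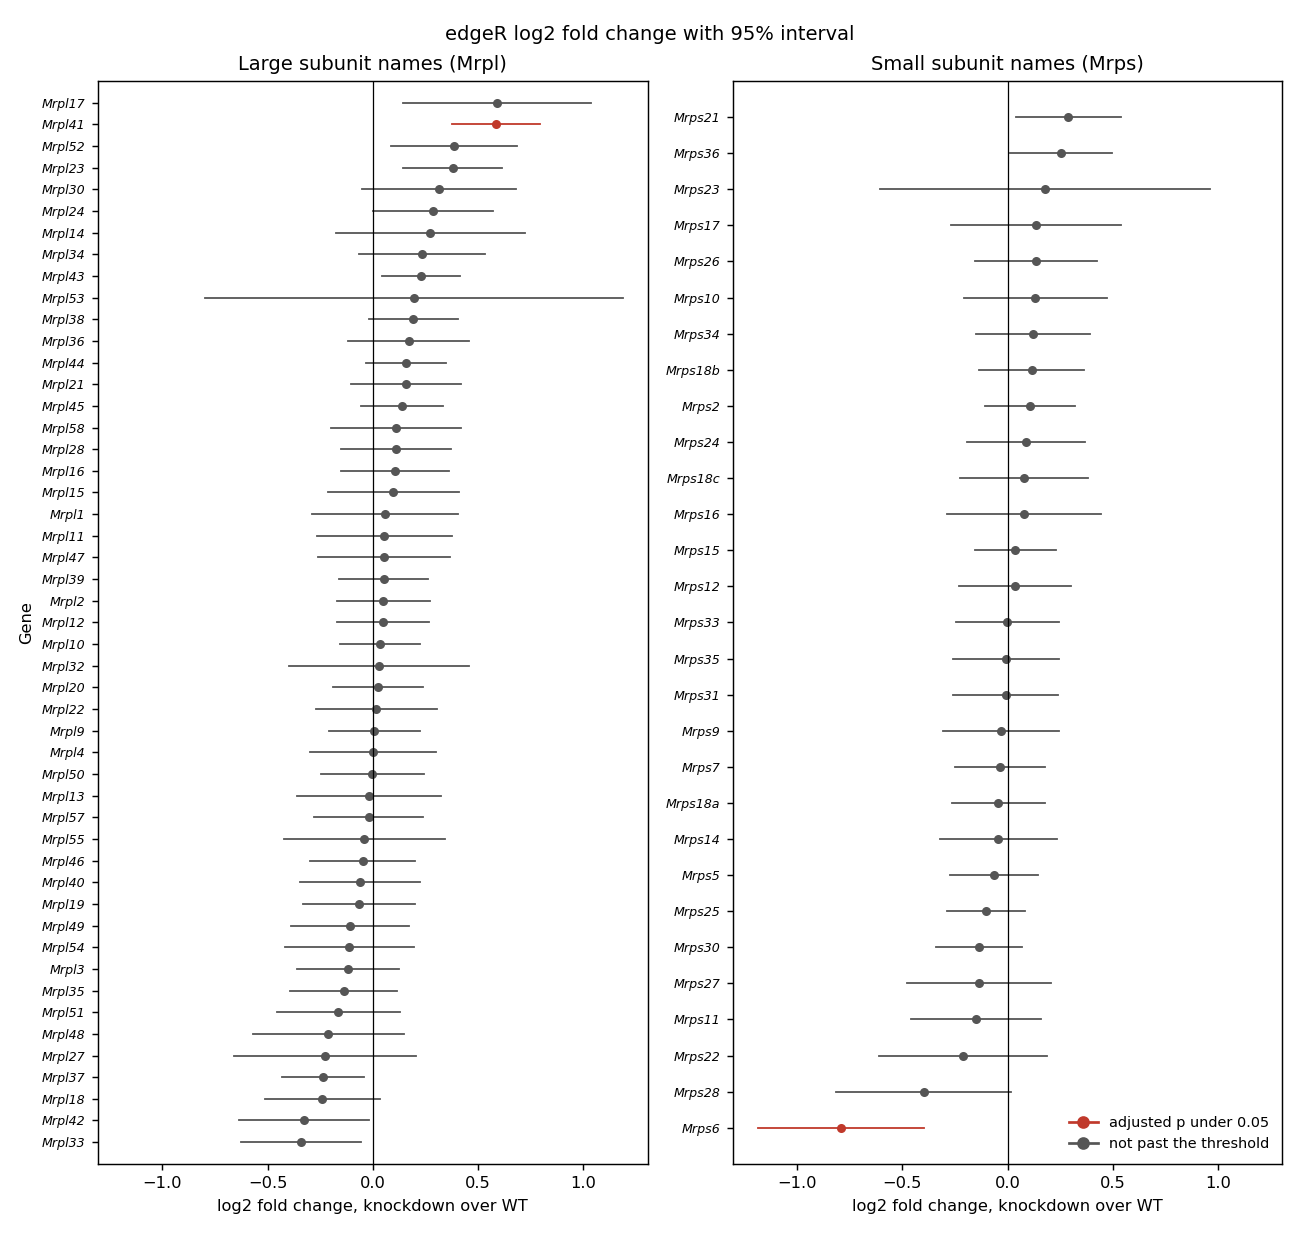
edgeR log2 fold change, knockdown over WT, of each of the 78 genes with its 95% interval, large subunit names on the left and small subunit names on the right. Only Mrpl41 and Mrps6 passed an adjusted p of 0.05, and most intervals lie within -0.5 and 0.5.

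**Figure D3:**
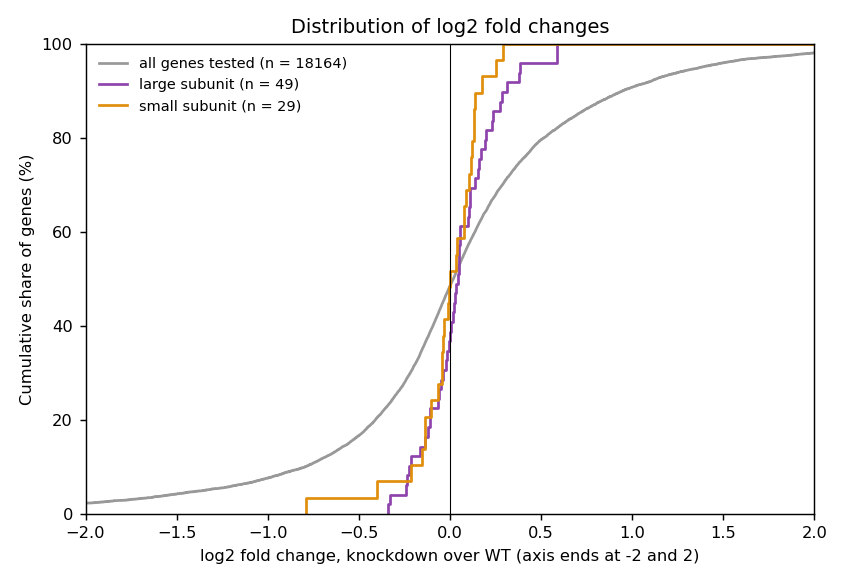
Cumulative share of genes (%) by log2 fold change for large subunit genes, small subunit genes and all genes tested, with the axis ending at -2 and 2. Both subunit curves rise steeply around 0, where 83.3% of the 78 genes lie within 0.25, while the curve of all genes is broader, with 40.0% within 0.25.

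The summed level of the large subunit genes was 631, 644 and 608 FPKM in the knockdown libraries and 597, 605 and 619 FPKM in WT. That of the small subunit genes was 312, 358 and 310 FPKM in knockdown and 321, 332 and 344 FPKM in WT. Both sums overlapped between groups. The ratio of the large to the small sum was 2.02, 1.80 and 1.96 in knockdown (1.93 ± 0.115, SD, n = 3) and 1.86, 1.82 and 1.80 in WT (1.83 ± 0.0312, SD, n = 3), so the ranges overlapped as well. Mrps23, a mitochondria-specific small subunit protein, was highest in knockdown replicate 2, the library with the lowest ratio of its group. It stood at 10.2, 29.6 and 16.1 FPKM in knockdown and at 16.6, 16.1 and 17.9 FPKM in WT, the widest spread of any of the 78 genes within the knockdown group (coefficient of variation 53.1%, where the median was 8.24%). Without Mrps23, a choice made after its spread was seen, the ratios were 2.09, 1.96 and 2.07 in knockdown and 1.96, 1.91 and 1.89 in WT. The ranges then still overlapped, by less than the third digit. All these sums include the called genes. Mrpl41 is in the large sum, with means of 41.2 FPKM in knockdown and 28.4 FPKM in WT. Mrps6 is in the small sum, with means of 17.0 and 30.4 FPKM. Both differences raise the ratio in knockdown, and ratios without these genes were not worked out, so a shift of the subunits as wholes is not shown.

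**Figure D4:**
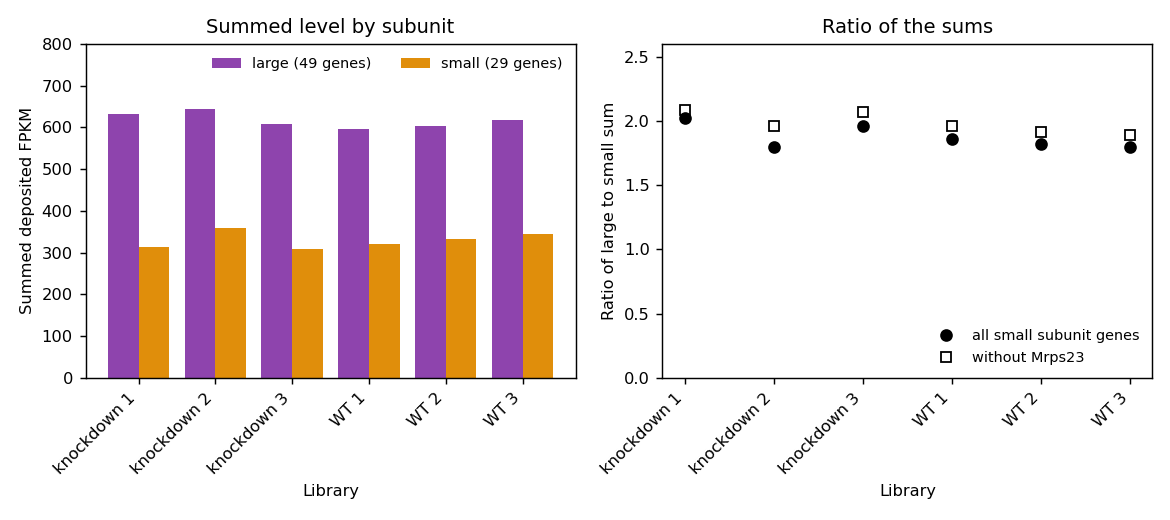
Summed deposited FPKM of the 49 large and 29 small subunit genes in each library (bars, left) and the ratio of the sums with and without Mrps23 (points, right). The large sum is between 597 and 644 FPKM and the small sum between 310 and 358 FPKM, and neither separates the knockdown from the WT libraries.

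Levels per length differed 35.8-fold among the 78 genes in the mean of all 6 libraries, with 21 genes under 5 FPKM, 45 from 5 to 20 and 12 at 20 or more. Of the 10 highest, 8 were large and 2 small subunit genes. Mrps21, a small subunit protein with a bacterial counterpart, was highest at 60.8 FPKM. It read 62.2, 72.7 and 62.8 FPKM in knockdown and 61.3, 53.8 and 51.8 FPKM in WT (log2 fold change 0.29, adjusted p = 0.118). Next in this mean came Mrpl41 at 34.8 FPKM and Mrpl12 at 34.4 FPKM, but their order differed between the groups. In knockdown every library of Mrpl41 stood above every library of Mrpl12 (means 41.2 and 34.4 FPKM), and in WT every library stood below (28.4 and 34.5 FPKM). In WT, Mrpl34 (31.2 FPKM) and Mrps6 (30.4 FPKM) also had higher means than Mrpl41. Mrpl12 is part of the stalk that receives translation factors. It stood at 37.2, 34.5 and 31.5 FPKM in knockdown and at 33.0, 34.2 and 36.3 FPKM in WT, groups that overlapped (log2 fold change 0.05, adjusted p = 0.777).

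The lowest levels were those of Mrpl32 (1.70 FPKM), Mrps35 (1.72 FPKM) and Mrps10 (1.81 FPKM), which overlapped one another across libraries. Mrpl32 is a large subunit protein processed on import by the m-AAA protease. Mrps35 is a mitochondria-specific and Mrps10 a bacterial-type small subunit protein. None of these 3 passed the test, with log2 fold changes of 0.03, -0.01 and 0.13 (edgeR adjusted p = 0.934, 0.971 and 0.588).

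The deposited FPKM divide by the length of all annotated exons of a gene, and this sets part of the order. For the 78 genes that length was 1.36 times the longest coding transcript in the median and 15.3 times at most. On the longest coding transcript, Mrps21 stayed highest (92.0 FPKM). Mrpl33, a large subunit protein with a bacterial counterpart, moved from rank 63 to rank 2 (3.64 to 55.7 FPKM), since its exons cover 7326 bp and its longest coding transcript 478 bp. Mrpl42 moved from rank 44 to 6 and Mrpl23 from rank 54 to 12. Fold changes between groups are not touched by this choice of length.

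After the called genes, the smallest p-values were those of Mrpl23, Mrpl17 and Mrpl52, named here after their values were seen. Mrpl23 lines the exit of the peptide tunnel. It read 6.46, 6.55 and 5.82 FPKM in knockdown and 4.92, 4.66 and 5.39 FPKM in WT (log2 fold change 0.38, SE 0.099, edgeR adjusted p = 0.0544). Mrpl17, a large subunit protein with a bacterial counterpart, read 3.84, 3.64 and 3.60 FPKM in knockdown and 3.26, 2.11 and 2.24 FPKM in WT (log2 fold change 0.59, SE 0.19, edgeR adjusted p = 0.0895). Mrpl52, a mitochondria-specific protein, read 23.0, 21.2 and 20.5 FPKM in knockdown and 19.2, 15.8 and 16.2 FPKM in WT (log2 fold change 0.38, SE 0.126, edgeR adjusted p = 0.0952). These 3 were chosen by p from the same libraries, where 8 of all 78 genes and 16.3% of all genes tested had the knockdown above without overlap. In each of the 3, every knockdown library stood above every WT library, and none passed the test. Each passed it in 1 or 2 of the other settings tried: Mrpl23 with DESeq2 and with counts divided by 4, Mrpl17 with DESeq2 and without WT replicate 1, and Mrpl52 without WT replicate 1.

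On the lower side, after Mrps6, came Mrps28 with a log2 fold change of -0.40, Mrpl33 with -0.34, Mrpl42 with -0.33, Mrpl18 with -0.24 and Mrpl37 with -0.24. The edgeR adjusted p were 0.181, 0.112, 0.146, 0.211 and 0.106, and the groups did not overlap in any of the 5. These were chosen by fold change from the same libraries, which favours such separation. It was seen, with the knockdown below, for 9 of all 78 genes and for 21.3% of all genes tested. Mrps28, a small subunit gene, stood at 7.11, 7.05 and 6.40 FPKM in knockdown and at 7.35, 11.01 and 9.71 FPKM in WT. Mrpl33 stood at 3.16, 3.66 and 2.63 FPKM in knockdown and at 3.95, 4.22 and 4.20 FPKM in WT. Mrpl53, a large subunit gene, had the widest spread in WT, with a coefficient of variation of 49.0%. Its level was low, with a mean of 1.88 FPKM (rank 75) over 790 bp of exons, and the reason for its spread was not tested. It shares 88.0% of its exon bases with other annotated genes.

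The products of Mrps18a, Mrps18b and Mrps18c are paralogs related to bacterial protein S18, of which a ribosome holds Mrps18a in the large and the others in the small subunit. Their log2 fold changes were -0.04 for Mrps18a, 0.11 for Mrps18b and 0.08 for Mrps18c, and none passed the test. Mrps18a stood at 7.97, 9.93 and 9.18 FPKM in knockdown and at 9.45, 9.52 and 9.85 FPKM in WT. Mrps18b ranged from 12.2 to 15.7 FPKM and Mrps18c from 15.2 to 21.6 FPKM over the 6 libraries, with overlapping groups. Mrps30, named for the small subunit but part of the large, stood at 3.09, 3.20 and 2.96 FPKM in knockdown and at 3.44, 3.46 and 3.61 FPKM in WT. Its groups did not overlap, but the difference did not pass the test (log2 fold change -0.14, edgeR adjusted p = 0.338). Mrpl58, a peptidyl-tRNA hydrolase built into the large subunit that can rescue stalled ribosomes, had a log2 fold change of 0.11 (edgeR adjusted p = 0.621). Mrps36 keeps its name although its protein is now assigned to the oxoglutarate dehydrogenase complex, and its log2 fold change was 0.25 (edgeR adjusted p = 0.152).

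Many of these genes lie close to other genes. They spread over 17 chromosomes, with 11 on chromosome 11, the most on any. Exon bases were shared with other tested genes by 29 of the 78. Over 20% of exon bases were shared with other annotated genes, tested or not, by 10 of the 78. A gene on the opposite strand overlapped 33 of them. Whether counting used strand is not given in the sources used here, so reads of such pairs cannot be told apart with certainty. For 32 of the 78 genes (41.0%), a gene on the opposite strand starts within 1000 bp of their own start. The arrangement was found for 2281 of the 21807 coding genes of the table (10.5%). That set includes genes that were not tested, whereas all 78 members were, so the shares are not like for like. The 32 genes form 31 pairs, since Mrps11 and Mrpl46 face each other. The distance between starts was 26 to 935 bp.

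Within these pairs, 3 neighbours were lower and 1 was higher in the knockdown, 12.5% of the 32, against 11.3% of all genes tested. Eme1, a subunit of a DNA endonuclease, starts 197 bp from Mrpl27. Eme1 stood at 0.362, 0.603 and 0.247 FPKM in knockdown and at 1.75, 3.41 and 5.25 FPKM in WT, and fell by 3.05 on the log2 scale (SE 0.48, edgeR adjusted p = 0.0160). Mrpl27 stood at 16.9, 10.9 and 12.8 FPKM in knockdown and at 16.5, 16.4 and 16.4 FPKM in WT, groups that overlapped, and did not pass the test (log2 fold change -0.23, edgeR adjusted p = 0.454).

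Ncapd2, a condensin subunit needed for chromosome condensation, starts 100 bp from Mrpl51. It fell by 2.32 on the log2 scale (SE 0.39, edgeR adjusted p = 0.0177), from 17.2 ± 6.91 FPKM in WT to 3.33 ± 1.41 FPKM in knockdown (SD, n = 3 each). Mrpl51 stood at 9.02, 9.10 and 8.76 FPKM in knockdown and at 9.29, 9.51 and 12.4 FPKM in WT and did not pass the test (log2 fold change -0.16, edgeR adjusted p = 0.420). Ska3, a protein that ties kinetochores to spindle microtubules, starts 71 bp from Mrpl57, within the window shown above. It stood at 0.514, 1.24 and 0.560 FPKM in knockdown and at 2.80, 4.81 and 6.57 FPKM in WT, and fell by 2.56 on the log2 scale (SE 0.43, edgeR adjusted p = 0.0184). Mrpl57 stood at 3.88, 4.43 and 3.66 FPKM in knockdown and at 4.17, 4.25 and 4.10 FPKM in WT, groups that overlapped, with a log2 fold change of -0.02 (95% interval -0.28 to 0.24).

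The Eme1 call was lost without WT replicate 2 or knockdown replicate 1 (adjusted p = 0.0704 and 0.0630). The calls of Ncapd2 and Ska3 were lost without WT replicate 2 or 3 or knockdown replicate 1 or 3, with adjusted p up to 0.0771. With limma without a filter all 3 calls were lost (adjusted p = 0.0636 for Eme1, 0.0593 for Ncapd2 and 0.0548 for Ska3). In each of these 3 pairs the interval of the mitochondrial ribosomal protein gene did not reach the fall of its neighbour, though the difference itself was not tested. The 1 higher neighbour was Ndufb5, a subunit of respiratory complex I, 157 bp from Mrpl47 (log2 fold change 0.35, edgeR adjusted p = 0.0499). That call was lost in 13 of the 15 alternatives. Over the 32 genes, the log2 fold changes of gene and neighbour had a Pearson r of 0.344 and a Spearman rho of 0.328, a description across genes measured in the same 6 libraries.

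**Figure D5:**
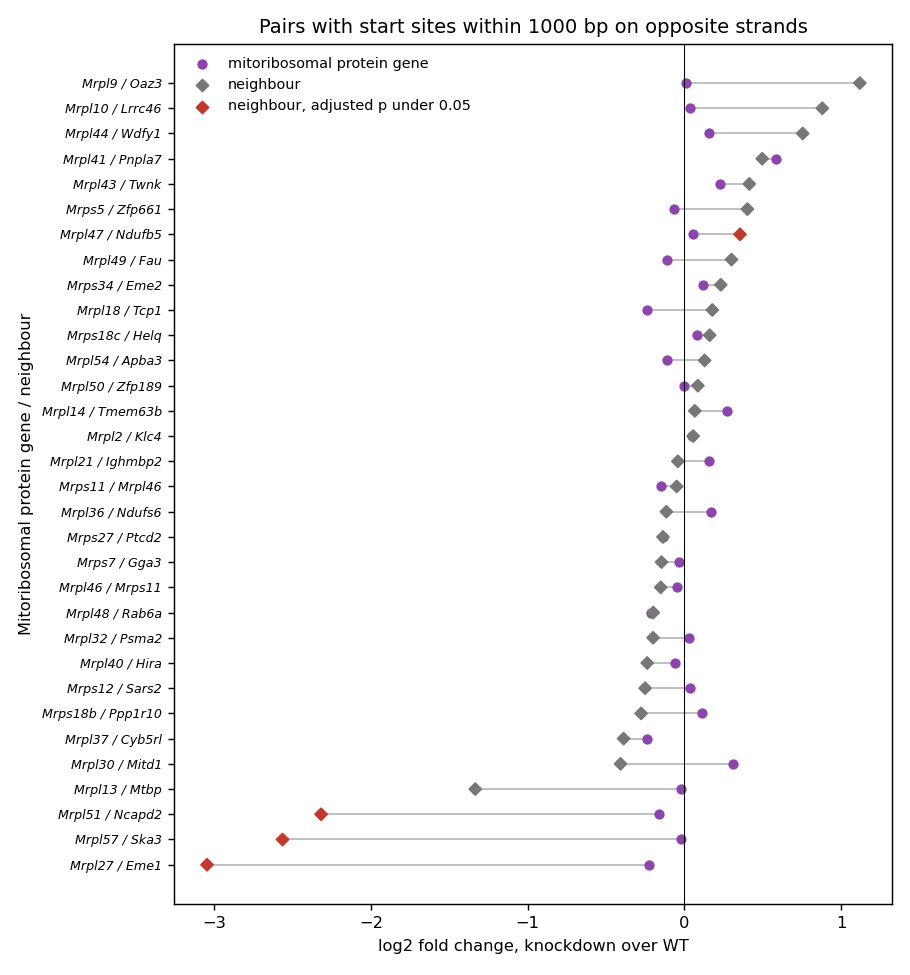
log2 fold change, knockdown over WT, of each of the 32 mitochondrial ribosomal protein genes that start within 1000 bp of a gene on the opposite strand (circles) and of that neighbour (diamonds, red where the adjusted p is under 0.05), ordered by the neighbour. The circles lie between -0.24 and 0.59, while the neighbours reach from -3.05 to 1.12.

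Other genes of mitochondrial translation were given by lists. None of 5 further ribosomal subunits without an Mrp name passed the test: Dap3, Ptcd3, Chchd1, Aurkaip1 and Gadd45gip1 had log2 fold changes from -0.20 to 0.46. None of 25 genes of ribosome assembly and rRNA modification passed it, with a median of 0.02. The nearest was Mettl17, an assembly factor, at 3.26, 3.21 and 3.81 FPKM in knockdown and at 4.31, 5.13 and 4.77 FPKM in WT (log2 fold change -0.41, edgeR adjusted p = 0.0743). Of 16 translation factors 1 rose and none fell. It was Mrrf, the factor that recycles ribosomes after termination, at 3.14, 2.85 and 3.33 FPKM in knockdown and at 2.28, 2.05 and 2.19 FPKM in WT. Every knockdown library of Mrrf stood above every WT library (log2 fold change 0.57, SE 0.125, edgeR adjusted p = 0.0351), but the call was lost in 6 of the 14 alternatives that tested it, among them those without WT replicate 2 or 3 or knockdown replicate 1 or 3 (adjusted p from 0.0967 to 0.140).

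None of 8 genes of mitochondrial DNA transcription and replication passed the test (median 0.01), and none of 9 regulators of mitochondrial biogenesis did (median -0.12). From the first list, Tfam, which packages mitochondrial DNA and is needed for its transcription, had a log2 fold change of -0.08 (edgeR adjusted p = 0.651). From the second, Nrf1, whose motif was searched above, had one of -0.10 (edgeR adjusted p = 0.738). The 80 cytosolic ribosomal protein genes, which build the ribosome outside mitochondria, gave other counts in the same fit. Of these 80, 20 rose and none fell, with a median of 0.32. Among all genes tested, 4.87% rose and 6.46% fell. The count of 20 became 42 without WT replicate 1, 3 without knockdown replicate 2, 1 without knockdown replicate 3, and 0 without WT replicate 2, WT replicate 3 or knockdown replicate 1. With the replicate block it was 4, with limma without a filter 4, and without a count filter 5. With limma on log2(FPKM + 0.1) it was 11, and on log2(FPKM + 1) 17 with a mean of at least 1 FPKM and 26 with at least 5. With RLE size factors it was 18, with counts divided by 4 26, and with DESeq2 27. Their summed level was 22697, 21412 and 21453 FPKM in knockdown and 19383, 17536 and 16789 FPKM in WT, without overlap. The difference between the cytosolic and mitochondrial lists was not tested.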

How the data were processed

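RNA of 6 libraries, 3 Lamtor5 knockdown and 3 WT, was measured by RNA-seq. Per the labels' protocols, libraries were made with a SMARTER kit from total RNA. The trimming logs' file headers name cutadapt 1.9 (overlap 5, minimum length 100), and the submitters' processing notes name GRCm38 (mm10). Not given in the sources used here: aligner, counter, annotation release and strand setting. The deposited table holds estimated counts, which are whole numbers and add up to more than the read pairs. The deposited FPKM divide by the length of all exons of a gene, which matched GENCODE M21 within 5% for all 78 members and for 99.3% of 9183 genes with high counts. A count of 0 is listed by the authors as 0.0001 FPKM.

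Estimated counts were filtered (filterByExpr, minimum count 10), scaled by TMM and tested with the edgeR 4.0.16 quasi-likelihood test in R 4.3.3. Group was the only term, over all 6 libraries, with Benjamini-Hochberg adjustment over 18164 genes and a threshold of 0.05. Standard errors were taken as the size of the log2 fold change over the square root of the F statistic of this test. Intervals are 95% and use these standard errors with a t quantile. FPKM were used for levels, sums and overlap of groups. Libraries held 75.8 to 83.2 M counts, and standard errors carry counting error together with the spread between libraries. The scripts were run on simulated counts with known differences between the groups. At a true fold of 1.5 the test found 1 gene out of 67. At a fold of 2 it found 13 out of 67, and at a fold of 3 it found 33 out of 66. Among 48 calls 1 was false. A gene that did not pass the test is therefore not shown to be unchanged. The changed genes were drawn at random from all genes that passed the filter, not from the 78. The median SE was 0.116 for the 78 and 0.224 for all genes tested. The simulation also made 48 calls, where the data gave 2058, which makes the adjustment stricter. These shares are therefore not the rate of detection for the 78 genes.

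Alternatives were DESeq2 1.42.0, RLE size factors, no count filter, counts divided by 4, limma 3.58.1 on log2(FPKM + 1) or log2(FPKM + 0.1) with a mean of at least 1 or 5 FPKM or no filter, a replicate block, and leaving out each of the 6 libraries. Genes were named if they were Lamtor5, a member past the threshold, 1 of the 3 highest or 3 lowest members, Mrps18a, Mrps18b, Mrps18c, Mrps30 or Mrpl58, or a list gene past the threshold. Others were named after their values were seen. The members and lists were chosen with earlier results of these data known. Pseudogene rows left out numbered 6. Protein sequences were not used here.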

Additional observations from a re-analysis of the deposited data

How the results depend on the processing

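The number of members that rose was 1. It was 3 with DESeq2 (Mrpl41, Mrpl23 and Mrpl17), 2 with counts divided by 4, and 0 to 3 with a library left out. The number that fell was 1. It was 0 with limma without a filter and 0 without a count filter, and 0 to 1 with a library left out. The median log2 fold change of the members, 0.03, was -0.01240 with limma on log2(FPKM + 0.1), -0.01188 on log2(FPKM + 1) with a mean of at least 1 FPKM or no filter, and -0.009477 with a mean of at least 5. The median of all genes, 0.02 in the edgeR fit, was -0.06 on log2(FPKM + 0.1), -0.05 on log2(FPKM + 1) with a mean of at least 1, -0.06 with a mean of at least 5 and 0.00 without a filter. The large subunit median, 0.05, was -0.00235, -0.005357, -0.005357 and -0.00566 in the same order of settings (log2(FPKM + 0.1), mean of at least 1, no filter, mean of at least 5), and 0.003338 to 0.07353 with a library left out. The cause was not tested. The small subunit median stayed within the spread between libraries in all 16 alternatives, from -0.05 to 0.04.

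Lamtor5 kept its call in 14 of 15 alternatives and lost it without WT replicate 2 (-1.09 on the log2 scale, adjusted p = 0.0616). With a library left out its log2 fold change was -1.085 to -1.036. Without WT replicate 2 no gene at all passed the edgeR threshold, while 4065 had an unadjusted p under 0.05, and without WT replicate 3 or knockdown replicate 1, 2 or 3 there were 625, 377, 1130 and 781 calls, against 2058 with all libraries. DESeq2 made 3550. Mrpl41 kept its call in 13 of 15 alternatives and Mrps6 in 9 of 15. No result changed direction past the threshold. The ratio of subunit sums differed by 0.101 between groups, and by 0.116 without Mrps23, with Mrpl41 and Mrps6 kept in the sums in both cases.

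With the replicate number as a block, 0 members rose, 1 fell (Mrps6) and 728 genes were called. Under this block Mrpl41 stood at 0.58 on the log2 scale (adjusted p = 0.0545). Libraries with the same number correlated at 0.0458, 0.0361 and -0.0108 in their deviations from the group means, so the numbers were not taken as pairs. Knockdown replicates 1 and 2 correlated best with the WT library of their own number and knockdown replicate 3 with WT replicate 2.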
